A study of Huso dauricus x Acipenser schrenckii with 16 samples.

Results

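VEGF receptors 1 and 2 (VEGFR1 and VEGFR2) and cadherin-5, 3 proteins of blood vessel lining cells, were followed across ovary libraries of hybrid sturgeon. They stand in the deposited table as 4 of its 41685 rows: LOC117420387, described there as VEGFR2, LOC117407053 and LOC131728756, both described as VEGFR1, and LOC117424661, described as cadherin-5. The 4 rows were chosen by name after their levels in the yield groups were known, so their levels and fold changes between the groups are given as a description with no test.

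RNA was sequenced in 16 ovary libraries of adult females, 8 labelled high yield and 8 low yield. All the females were of a cross between Huso dauricus mothers and Acipenser schrenckii fathers, kept at a single farm under normal breeding conditions. The high-yield females came from one population and the low-yield females from another, so yield and population cannot be told apart. No other treatment or allele is labelled, and nothing in the labels beyond 8 females in each group says that every library is a separate animal. Poly(A) RNA was captured from whole ovary, a mixture of oocytes, follicle cells, stroma, vessels and blood, in which fewer cells of a type and less RNA per cell cannot be told apart.

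Library totals ran from 37362125 to 60873931 counts. The high-yield libraries formed nearly identical pairs (1 with 5, 2 with 6, 3 with 7, 4 with 8): Spearman's rho of log2 CPM (CPM, counts scaled to library size with TMM factors) was 0.989 to 0.994 within these pairs and at most 0.970 between any other 2 libraries. Means and SDs in high yield are therefore over 4 pair means. Low-yield 2 and 5 stood apart from the other 6 low-yield libraries, with fibroblast and matrix markers summing to 904 and 1174 FPKM (fragments per kilobase, scaled to library size), against 32.0 to 104 FPKM in the other 6, so values are also given without them. Of these sums, 448 and 626 FPKM in low-yield 2 and 5 came from a short collagen row, LOC131728757, of about 0.132 kb. P-values that treat all libraries as separate measure only the spread between these libraries. The SEs and adjusted p-values of single rows below are from such fits, unless pairs are said to be summed. They understate the uncertainty if paired libraries are of the same female, which the labels do not settle.

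VEGF ligands act on endothelial cells through receptor tyrosine kinases. VEGFR2 carries most of the growth and permeability signal, VEGFR1 binds VEGF-A and placenta growth factor tightly and can act as a decoy, and VEGFR3 serves mainly lymphatic endothelium. Cadherin-5, or VE-cadherin, holds endothelial cells together at adherens junctions, where it binds catenins and forms complexes with VEGFR2. In the vertebrate ovary, vessels grow into the theca around developing follicles and bring yolk precursors to the oocyte. Sturgeons descend from a genome duplication, and many genes stand in the table as several rows; where near-identical copies exist, the authors' counting could have split or shared their reads, so values of single rows are uncertain to that extent.

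The 3 VEGF receptor rows and cadherin-5 had different patterns. The receptor rows were low in every high-yield pair and higher in 6 or 7 of the 8 low-yield libraries, with low-yield 7 an exception in each and low-yield 4 a further one for VEGFR2. Cadherin-5 was high in low-yield 2 and 5 and at a like, low level in all other libraries of both groups.

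**Figure D1:**
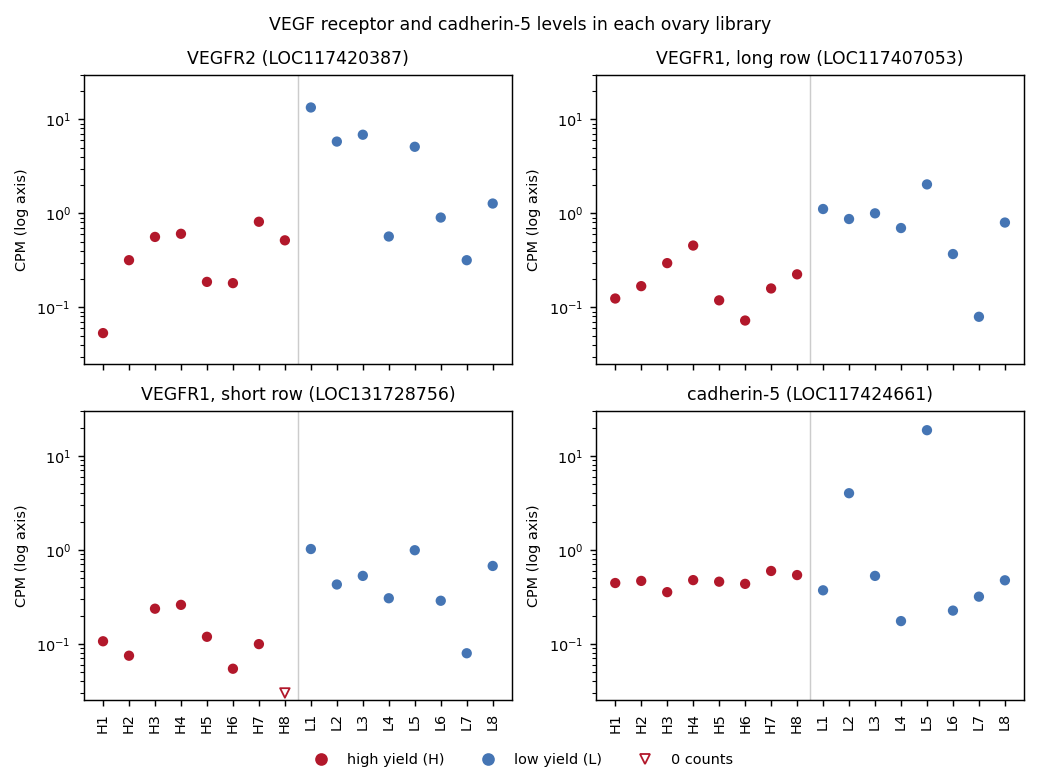
CPM on a log axis in each of the 16 libraries (H1 to H8 high yield, L1 to L8 low yield; each point is a library, and the open triangle marks a library with 0 counts). The 3 receptor rows are lower in most high-yield libraries than in most low-yield libraries, while cadherin-5 stands out in L5 at 18.7 CPM and L2 at 4.00 CPM.

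VEGFR2 (LOC117420387) had 3 to 41 counts per high-yield library, and 12 to 433 counts per low-yield library. Its high-yield pair means were 0.120, 0.249, 0.688 and 0.561 CPM, in the order of pairs above. Its 8 low-yield values, in library order, were 13.4, 5.81, 6.87, 0.567, 5.11, 0.903, 0.318 and 1.27 CPM. Low-yield 1, 3, 2 and 5 were the highest, 6 of the 8 low-yield libraries lay above the highest high-yield pair, and low-yield 4 and 7 lay within the high-yield range. VEGFR2 averaged 0.405 ± 0.265 CPM in high yield (SD, n = 4 pair means), against 4.28 ± 4.51 CPM in low yield (SD, n = 8). Without low-yield 2 and 5 the low-yield mean was 3.88 ± 5.26 CPM (SD, n = 6), and 4 of these 6 libraries lay above the highest pair. The log2 fold change, high over low yield, was -3.40 (SE 0.75) in the edgeR fit of 16 libraries and -3.25 (SE 0.81) without low-yield 2 and 5. Low-yield 1 alone held the highest value, and the fold change without it was -2.87. With high-yield pairs summed, the fold change was -3.34 (SE 1.04) with all 8 low-yield libraries and -3.22 (SE 1.11) without low-yield 2 and 5.

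Both VEGFR1 rows were at low counts. The longer row, LOC117407053, had 4 to 21 counts per high-yield library, and 3 to 78 counts per low-yield library. Its high-yield pair means were 0.121, 0.120, 0.227 and 0.340 CPM in the same order of pairs. Its low-yield values were 1.11, 0.871, 1.00, 0.698, 2.03, 0.369, 0.0794 and 0.799 CPM. Low-yield 5 was the highest and low-yield 7, with 3 counts, the lowest of all 12 values, and the other 7 low-yield libraries all lay above the highest pair. The row averaged 0.202 ± 0.104 CPM in high yield (SD, n = 4), against 0.870 ± 0.578 CPM in low yield (SD, n = 8) and 0.676 ± 0.390 CPM in low yield without 2 and 5 (SD, n = 6). Its log2 fold change was -2.10 (SE 0.57) in the 16-library fit and -1.73 (SE 0.57) without low-yield 2 and 5. With pairs summed these were -2.08 (SE 0.82) and -1.74 (SE 0.76).

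The shorter VEGFR1 row, LOC131728756, had 0 to 12 counts per high-yield library, and 3 to 38 counts per low-yield library. High-yield 8 had 0 counts, and 3 counts in that library would be 0.0674 CPM. The pair means were 0.113, 0.0645, 0.168 and 0.130 CPM, and the low-yield values 1.02, 0.428, 0.528, 0.305, 0.991, 0.287, 0.0794 and 0.674 CPM. Low-yield 7 lay within the high-yield range, whereas in the longer row it lay below that range. As in the longer row, the other 7 low-yield libraries lay above it. The row averaged 0.119 ± 0.0429 CPM in high yield (SD, n = 4), against 0.539 ± 0.337 CPM in low yield (SD, n = 8) and 0.482 ± 0.335 CPM without low-yield 2 and 5 (SD, n = 6). The log2 fold change was -2.17 (SE 0.66), and -2.0 (SE 0.70) without these 2 libraries. With pairs summed these were -2.16 (SE 0.83) and -2.02 (SE 0.78). The ratio of counts to FPKM gives this row a length of about 0.136 kb, against 2.35 kb for LOC117407053, 3.79 kb for VEGFR2 and 5.57 kb for cadherin-5. It thus holds a short piece of the receptor, and its FPKM of 0.809 ± 0.272 in high yield (SD, n = 4) and 3.88 ± 2.11 in low yield (SD, n = 8) rests on few counts.

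Cadherin-5 (LOC117424661) had 12 to 30 counts per high-yield library, and 8 to 719 counts per low-yield library. Its pair means were 0.451, 0.451, 0.475 and 0.508 CPM, the narrowest spread of the 4 rows. Its low-yield values were 0.371, 4.00, 0.528, 0.175, 18.7, 0.226, 0.318 and 0.474 CPM. Low-yield 5 and 2 together held 91.6% of the summed low-yield CPM, against 31.9%, 41.7% and 32.9% for VEGFR2, the longer and the shorter VEGFR1 row. All 4 high-yield pairs lay above the low-yield median of 0.423 CPM, whereas for the 3 receptor rows all 4 lay below it. Of the 8 low-yield libraries, 4 lay below the lowest cadherin-5 pair, 1 within the range of the pairs and 3 above it. Cadherin-5 averaged 0.471 ± 0.0269 CPM in high yield (SD, n = 4), against 3.10 ± 6.45 CPM in low yield (SD, n = 8) and 0.348 ± 0.138 CPM in low yield without 2 and 5 (SD, n = 6). The log2 fold change was -2.71 (SE 0.91) in the 16-library fit, -0.90 without low-yield 5, and 0.45 (SE 0.39) without low-yield 2 and 5, a reversed direction. With pairs summed the cadherin-5 value was -2.64 (SE 1.34), and 0.47 (SE 0.55) without low-yield 2 and 5 as well. The 3 receptor rows kept a negative fold change in each of these fits.

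**Figure D2:**
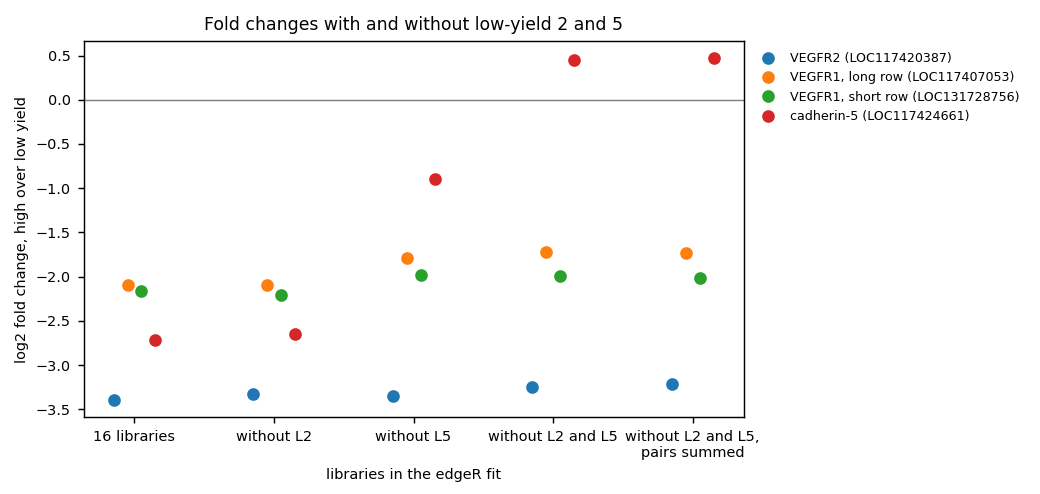
Log2 fold change, high over low yield, of the 4 rows in edgeR fits of different sets of libraries (points are fitted values). The receptor rows lie between -3.40 and -1.73, while cadherin-5 is at 0.45 without L2 and L5 and at -2.71 with 16 libraries.

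Across all genes, edgeR's quasi-likelihood test with Benjamini-Hochberg adjustment called 16 of 27653 tested rows (0.0579%) at an adjusted p under 0.05, 14 lower (0.0506%) and 2 higher (0.00723%) in high yield, and 5484 (19.8%) had an unadjusted p under 0.05. None of the 4 rows was among the 16. DESeq2 on the same libraries called 1624 of the 26580 rows with an adjusted p (6.11%), with VEGFR2 and the longer VEGFR1 row among them, and on summed pairs 86 of 25746 (0.334%), with VEGFR2 among them. Without low-yield 2 and 5, 3 of 27905 rows (0.0108%) were called, none of the 4 among them, while DESeq2 called 2461 of 26204 (9.39%), with VEGFR2 among them. In each of these DESeq2 fits only 3 of the 4 rows had an adjusted p. With 16 libraries the row without one was the shorter VEGFR1 row, so it could not be called. Nothing is read from these calls, since the rows were chosen on this contrast. All 4 passed the filter on low counts, which asked for 0.220 CPM in 8 libraries, but the low-yield libraries carried the VEGFR1 rows past it: LOC131728756 reached it in 1 high-yield library and 7 low-yield libraries, and LOC117407053 in 3 and 7. VEGFR2 reached it in 5 and 8 and cadherin-5 in 8 and 7.

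Per length, the shorter VEGFR1 row had the highest mean in both groups, at 0.809 FPKM in high yield and 3.38 FPKM in low yield without 2 and 5, on few counts. Among the other 3 rows VEGFR2 had the highest mean in both groups. In high yield VEGFR2 averaged 0.101 ± 0.0587 FPKM, cadherin-5 0.0852 ± 0.0118 FPKM and the longer VEGFR1 row 0.0819 ± 0.0450 FPKM (SD, n = 4), levels that differ by less than their spread. In low yield without 2 and 5, VEGFR2 averaged 0.955 ± 1.25 FPKM, the longer VEGFR1 row 0.282 ± 0.154 FPKM and cadherin-5 0.0596 ± 0.0231 FPKM (SD, n = 6). Cadherin-5 and the longer VEGFR1 row differed by more than the SD of either. VEGFR2 and the longer VEGFR1 row differed by less than the SD of VEGFR2. The ratio of VEGFR2 to cadherin-5 FPKM was 0.392 to 2.13 in the high-yield pairs. It was 53.6 in low-yield 1, 19.5 in low-yield 3, and 1.44 to 5.83 in low-yield 4, 6, 7 and 8. In low-yield 2 and 5 the ratio was 2.11 and 0.395, within the range of the high-yield pairs.

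Which rows varied together was examined on log2 CPM over 10 values, the 4 high-yield pair means and the 6 low-yield libraries other than 2 and 5. VEGFR2 and the longer VEGFR1 row had Pearson's r = 0.84 and Spearman's rho = 0.89. VEGFR2 and the shorter row had r = 0.84 and rho = 0.87. The 2 VEGFR1 rows had r = 0.90 and rho = 0.89. The yield difference for which the rows were chosen enters these values, so no p is read from them.

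Without the 2 libraries farthest from the median of the first row, r was 0.78, 0.72 and 0.87 for the same 3 relations. With each value centred on its yield group and order exchanged only within groups, a check added after seeing the data, r was 0.76, 0.76 and 0.85 (adjusted exact permutation p = 0.0625 for each, two-sided, over 6 relations), which misses the threshold of 0.05. Within the 6 low-yield libraries alone, r was 0.75, 0.83 and 0.93. The adjusted exact permutation p was 0.122, 0.10 and 0.0333, so that only the relation between the 2 VEGFR1 rows passed there. Both of these rows are described as the same receptor, and the shorter is only about 0.136 kb long. Whether they are pieces of a single gene or share reads was not tested. Nothing about separate genes varying together is therefore read from that p. The rows were also chosen with their levels known, so the p-values describe these libraries only.

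Cadherin-5 showed no such relation over the 10 values. Its r was 0.10 with VEGFR2, -0.08 with the longer and -0.10 with the shorter VEGFR1 row. The corresponding rho was 0.16, 0.18 and -0.01. The yield difference enters these values too. Centred on yield groups as above, r was 0.55, 0.32 and 0.41, none passing (adjusted exact permutation p = 0.307, 0.530 and 0.481). Over the 6 low-yield libraries r was 0.57, 0.30 and 0.44, none passing (adjusted exact permutation p = 0.338, 0.594 and 0.473). Over all 12 values, given as a description since low-yield 2 and 5 stand apart, cadherin-5 had r = 0.47, 0.53 and 0.43 with the 3 receptor rows, which had 0.86, 0.86 and 0.92 among themselves.

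**Figure D3:**
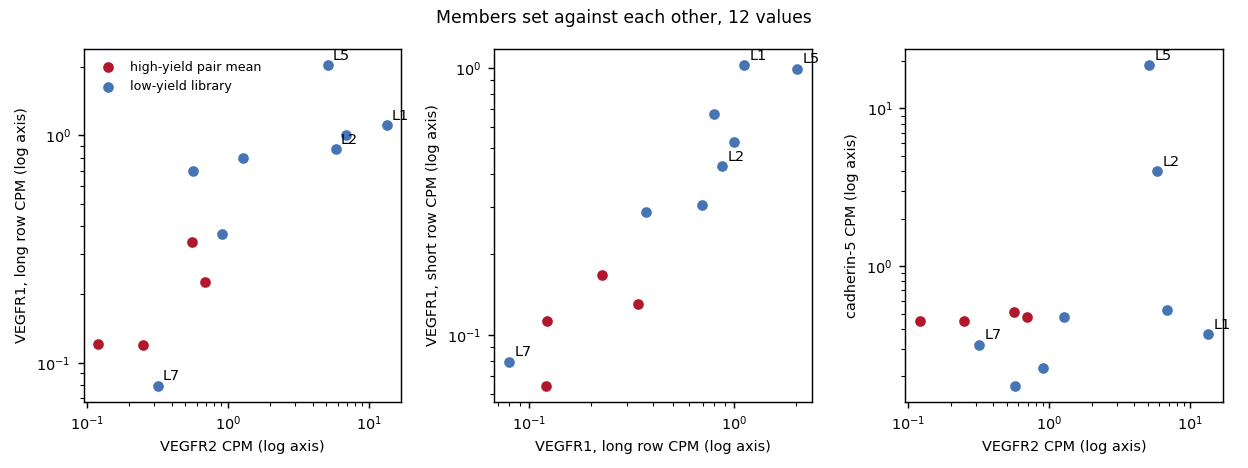
CPM of pairs of rows on log axes (red, 4 high-yield pair means; blue, 8 low-yield libraries). The longer VEGFR1 row tends to rise with VEGFR2, and the shorter VEGFR1 row with the longer. L7 lies at the level of the high-yield pairs or, for the longer row, below them. Cadherin-5 is low except in L2 and L5.

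Markers of granulosa cells, the follicle cells next to the oocyte, were also high in some of the libraries with high VEGFR2. The 14 rows of that list summed to 4.19 to 8.30 FPKM in the high-yield pairs, against 36.2, 62.1, 74.5, 70.9, 15.3, 4.90, 13.6 and 11.5 FPKM in low-yield 1 to 8. Lhx9-like LOC131707143, the row of that list at the highest level, averaged 1.58 ± 1.61 FPKM in high yield (SD, n = 4), against 19.1 ± 18.5 FPKM in low yield (SD, n = 8). That row made up much of the list's sum, at 23.1, 48.5 and 43.9 FPKM in low-yield 1, 3 and 4. It is only about 0.133 kb long with 897 counts in all, so its FPKM and the list's sum rest on a short piece. With 16 libraries all 7 tested rows of the list were lower in high yield, with a median log2 fold change of -1.68. Of the 7, 3 (42.9%) had an unadjusted p under 0.05 with edgeR, against 10.7% of all. Of the 8 rows tested without low-yield 2 and 5, 4 were lower in high yield by value and 4 higher, with a median log2 fold change of -0.12. EdgeR called none. DESeq2 called 1 lower with 16 libraries, 1 lower with pairs summed, and 1 higher and 2 lower without low-yield 2 and 5. Over all rows it called 6.11%, 0.334% and 9.39%. The list's order of libraries was not that of VEGFR2, since low-yield 4 had 70.9 FPKM of granulosa markers and 0.567 CPM of VEGFR2. No row of any marker list was at 0 in all libraries, and the part of these cells in the receptor levels was not tested.

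The table holds 10 rows described as VEGF receptors, each on a sequence of its own, and 7 of them are not among the rows above. The other VEGFR1 rows had the pattern of the first 2. LOC131728719, a row of about 0.139 kb with 99 counts that was too low to be tested, had 0 to 0.104 FPKM in the high-yield pairs, against 4.19, 2.20, 3.61, 2.33, 2.42, 0.617, 0 and 1.46 FPKM in low-yield 1 to 8. LOC117405676, of about 13.8 kb, averaged 0.0413 ± 0.0174 FPKM in high yield (SD, n = 4), against 0.112 ± 0.0669 FPKM in low yield (SD, n = 8). It had a log2 fold change of -1.39 (SE 0.52, adjusted p = 0.168 with edgeR), and -1.01 (SE 0.53, adjusted p = 0.288) without low-yield 2 and 5. In all 4 VEGFR1 rows low-yield 7 was at the level of the high-yield pairs or below it, and 4 or 5 of the 6 low-yield libraries other than 2 and 5 lay above the highest pair.

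The second VEGFR2 row did not share this pattern. LOC117408570 had 0 to 0.0220 FPKM in the high-yield pairs, against 0 to 0.0274 FPKM in the 6 low-yield libraries, 0.272 FPKM in low-yield 2 and 0.161 FPKM in low-yield 5. In low-yield 1, where LOC117420387 was at 3.15 FPKM, LOC117408570 was at 0. It had a log2 fold change of -2.50 (SE 1.09, adjusted p = 0.219 with edgeR) with 16 libraries and -0.59 (SE 1.00, adjusted p = 0.776) without low-yield 2 and 5.

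The VEGFR3 rows and the kdr-like rows, which are related to VEGFR2, also peaked in low-yield 2 and 5. VEGFR3 LOC117412879 averaged 0.0570 ± 0.0381 FPKM in high yield (SD, n = 4) and 0.0428 ± 0.0408 FPKM in low yield without 2 and 5 (SD, n = 6), and had 0.862 and 1.26 FPKM in low-yield 2 and 5. VEGFR3 LOC117431549 averaged 0.326 ± 0.229 FPKM in high yield and 0.369 ± 0.301 FPKM in these 6, with 3.73 and 3.09 FPKM in low-yield 2 and 5. The kdr-like LOC117430671 averaged 0.127 ± 0.0705 FPKM in high yield and 0.166 ± 0.280 FPKM in the 6, with 1.93 and 2.19 FPKM in low-yield 2 and 5. The kdr-like LOC117412244, untested, had 1.64 and 1.18 FPKM there and 1.21 FPKM in low-yield 6. In FPKM, low-yield 2 and 5 were the 2 highest of the 12 values in 6 of the 10 receptor rows, in all 4 neuropilin rows and in both cadherin-5 rows. They were so in 3 of the 9 ligand rows, and the share over all rows was not computed. The 6 include the VEGFR1 rows LOC117407053 and LOC117405676. The count depends on the scale: in CPM, LOC117407053 was lower in low-yield 2 (0.871) than in low-yield 1 and 3 (1.11 and 1.00).

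Of the 7 receptor rows other than those chosen, 5 were tested and none was called by edgeR or DESeq2 in the 16-library fit; all 5 had a negative fold change and 4 an unadjusted p under 0.05, against 10.7% of all tested rows with such a p in that direction. Their median log2 fold change was -2.24, against -0.03 over all tested rows. With pairs summed all 7 rows were tested and 2 (28.6%) were lower at an unadjusted p under 0.05, against 3.35% of all. These 2 were LOC131728719 and LOC117412244, not among the 5 rows above. They had 4 and 9 counts over all high-yield libraries, so the low-yield libraries carried them past the filter. Nothing is read from that share. Without low-yield 2 and 5 the median was -0.30, against 0.03 over all tested rows, and none had an unadjusted p under 0.05. The second cadherin-5 row, LOC117425727, had 228 counts in all and was not tested; 118 of them were in low-yield 2 and 72 in low-yield 5.

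**Figure D4:**
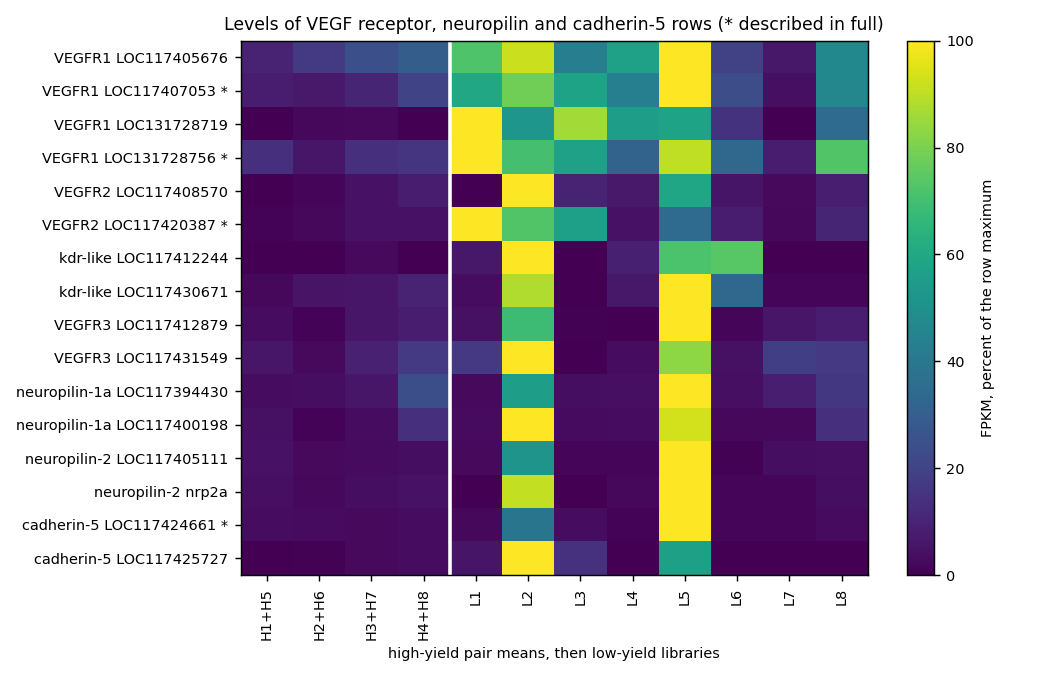
FPKM of each VEGF receptor, neuropilin and cadherin-5 row in the 4 high-yield pair means (left) and the 8 low-yield libraries, as a percent of the row's highest value. The 4 VEGFR1 rows are above the high-yield pairs in L1, L2, L3, L4, L5 and L8, VEGFR2 LOC117420387 is brightest in L1, L2, L3 and L5, and most of the other rows are bright in L2 and L5.

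The ligands of these receptors were described by 9 rows. Of these, 5 were tested and none was called by edgeR or DESeq2, with 16 libraries or without low-yield 2 and 5; 1 (20%) had an unadjusted p under 0.05 with edgeR and 16 libraries, against 19.8% of all tested rows. That row, VEGF-C LOC117420824, averaged 0.205 ± 0.128 FPKM in high yield (SD, n = 4), against 0.476 ± 0.246 FPKM in low yield (SD, n = 8), with a log2 fold change of -1.17 (SE 0.52, adjusted p = 0.222). The other VEGF-C row, vegfc, averaged 0.182 ± 0.144 FPKM in high yield and 0.219 ± 0.218 FPKM in low yield, and the VEGF-A-like row vegfba 0.457 ± 0.272 FPKM and 0.469 ± 0.251 FPKM. The placenta growth factor-like rows, whose product binds VEGFR1, had positive log2 fold changes of 0.77 (SE 0.39, adjusted p = 0.276) for LOC117416693 and 0.44 (SE 0.44, adjusted p = 0.595) for LOC117422031. LOC117416693 averaged 0.885 ± 0.268 FPKM in high yield, against 0.520 ± 0.226 FPKM in low yield. Without low-yield 2 and 5, 4 of the 5 tested ligand rows were higher in high yield by value and 1 lower. Their median log2 fold change was then 0.42, against 0.03 over all tested rows. The untested VEGF-A row LOC117403077 and VEGF-D rows LOC117405792 and vegfd, with 191, 248 and 170 counts, were highest in low-yield 2 and 5.

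Neuropilins are co-receptors that present VEGF to its receptors. All 4 rows had negative fold changes with 16 libraries (median -2.42) and positive ones without low-yield 2 and 5 (median 0.51), and none was called by edgeR or DESeq2 in either fit. Of the 4, 3 had an unadjusted p under 0.05 with edgeR and 16 libraries, against 19.8% of all tested rows, and none without these 2, against 20.8% of all. With pairs summed none of the 4 had such a p, against 8.52% of all. Neuropilin-2 LOC117405111 averaged 0.133 ± 0.0410 FPKM in high yield (SD, n = 4) and 0.0866 ± 0.0546 FPKM in low yield without 2 and 5 (SD, n = 6), and had 1.97 and 3.82 FPKM in low-yield 2 and 5. It had a log2 fold change of -2.61 (SE 0.93, adjusted p = 0.152) with 16 libraries and 0.55 (SE 0.49, adjusted p = 0.544) without the 2. For nrp2a the same values were -2.67 (SE 1.15, adjusted p = 0.213) and 1.26 (SE 0.79, adjusted p = 0.379). Neuropilin-1a LOC117400198 had 1.60 and 1.49 FPKM and LOC117394430 1.77 and 3.18 FPKM in low-yield 2 and 5.

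Over 10 lists of vessel and VEGF pathway genes, with the 4 rows left out, 157 of 206 rows were tested. EdgeR called none in the fit of 16 libraries, nor with pairs summed, nor without low-yield 2 and 5. DESeq2 called 14 of 157 with 16 libraries, 0 of 174 with pairs summed and 11 of 157 without low-yield 2 and 5. Over all rows with an adjusted p it called 6.11%, 0.334% and 9.39% in the same fits. With 16 libraries 118 of the 157 had negative fold changes, and 50 (31.8%) had an unadjusted p under 0.05 in that direction, against 10.7% of all tested rows; 9 (5.73%) had one in the other direction, against 9.15% of all. The median log2 fold change was -0.59, against -0.03 over all tested rows. With pairs summed, 17 of 174 list rows had an unadjusted p under 0.05, against 8.52% of all tested rows: 11 (6.32%) lower, against 3.35% of all, and 6 (3.45%) higher, against 5.18%. The 11 include LOC131728719 and LOC117412244, which the low-yield libraries carried past the filter. Without low-yield 2 and 5, 69 of 157 were negative, 10 (6.37%) had such a p in that direction, against 8.3% of all, and 15 (9.55%) in the other, against 12.5%; the median was 0.08, against 0.03. With pairs summed as well, 4 of 158 (2.53%) were lower at such a p, against 4.35% of all, and 9 (5.7%) higher, against 8.55%. Leaving out low-yield 8 alone gave 3 called rows of the lists and 536 called rows over the table.

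Partners of cadherin-5 at the junction include the catenins, which bind its tail. Of 35 tested rows of the junction list none was called by edgeR with 16 libraries and 3 by DESeq2, against 6.11% of all rows called by DESeq2. None of the 3 was called with pairs summed. At an unadjusted p under 0.05 with edgeR, 10 (28.6%) were lower, against 10.7% of all tested rows, and 4 (11.4%) higher, against 9.15% of all. With pairs summed, 2 of 36 (5.56%) were lower at such a p, against 3.35% of all, and 2 (5.56%) higher, against 5.18%. Without low-yield 2 and 5, 2 of 35 (5.71%) were lower, against 8.3% of all, and 5 (14.3%) higher, against 12.5%. The median log2 fold change was -0.43 with 16 libraries and -0.16 without these 2. DESeq2 then called 2 higher and 1 lower, against 9.39% of all. Catenin beta-1 LOC131728652, which links cadherins to the cytoskeleton, averaged 196 ± 50.3 FPKM in high yield (SD, n = 4), against 235 ± 107 FPKM in low yield (SD, n = 8). That row is only about 0.131 kb long, so its FPKM rests on a short piece. Catenin delta-1-like LOC117410205, which stabilises cadherin at the membrane, averaged 18.9 ± 3.22 FPKM in high yield, against 29.6 ± 9.14 FPKM in low yield, with a log2 fold change of -0.61 (SE 0.13, adjusted p = 0.0653), and -0.59 (SE 0.13, adjusted p = 0.0715) without low-yield 2 and 5. Of the PDCD10 rows, whose product is part of the cerebral cavernous malformation complex, pdcd10a averaged 101 ± 18.4 FPKM in high yield, against 76.6 ± 37.3 FPKM in low yield, and LOC117423017 48.7 ± 10.6 FPKM, against 28.9 ± 10.6 FPKM (log2 fold change 0.71, SE 0.22, adjusted p = 0.118).

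Of the 45 rows of the other endothelial surface list, 37 had their highest value in low-yield 2 or 5. So did 79 of 161 oocyte marker rows and 19 of 24 leukocyte marker rows, and the share over all rows was not computed. Low-yield 2 and 5 also had the most detected rows of all libraries, 36856 and 34696. Nothing particular to endothelium is therefore read from the count. None of the surface rows was called by edgeR. DESeq2 called 4 of the 34 tested rows of the surface list with 16 libraries, against 6.11% of all, and 0 with pairs summed. Angiopoietin-1 receptor LOC117421531, or TIE2, averaged 0.0377 ± 0.0125 FPKM in high yield (SD, n = 4) and 0.0338 ± 0.0317 FPKM in low yield without 2 and 5 (SD, n = 6), and had 0.256 and 0.920 FPKM in low-yield 2 and 5. Roundabout homolog 4 LOC131707298, an endothelial guidance receptor, averaged 11.9 ± 11.4 FPKM in high yield and 18.2 ± 22.1 FPKM in these 6, with 109 and 137 FPKM in low-yield 2 and 5. Stabilin-1 LOC117971373, a scavenger receptor of sinusoidal endothelium and macrophages, averaged 18.2 ± 11.4 FPKM in high yield, 48.1 ± 41.6 FPKM in the 6, and had 179 and 116 FPKM in the 2. The rows LOC131707298 and LOC117971373 are only about 0.133 and 0.215 kb long, so their FPKM rest on short pieces. Sphingosine 1-phosphate receptor 1 LOC117417300, which steadies endothelial junctions, averaged 0.202 ± 0.0524 FPKM in high yield and 0.345 ± 0.193 FPKM in the 6, with 1.52 and 4.27 FPKM in the 2; the log2 fold change came to -2.35 (SE 0.68, adjusted p = 0.107) and without the 2 it was -0.76 (SE 0.43, adjusted p = 0.331). Of the 34 tested rows of that surface list, 30 had negative fold changes with 16 libraries and 15 without low-yield 2 and 5.

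Proteins that relay the VEGFR2 signal include adaptors and Src family kinases. The 24 tested rows had a median log2 fold change of -0.17 with 16 libraries and 0.03 without low-yield 2 and 5. EdgeR called none in either fit. DESeq2 called 1 with 16 libraries, against 6.11% of all, and 0 with pairs summed. With 16 libraries 3 (12.5%) were lower at an unadjusted p under 0.05, against 10.7% of all tested rows, and 1 (4.17%) higher, against 9.15%. The adaptor NCK1, LOC117423584, averaged 61.6 ± 23.4 FPKM in high yield (SD, n = 4), against 60.7 ± 16.9 FPKM in low yield (SD, n = 8), and the kinase Yes, LOC117400377, 54.3 ± 20.5 FPKM, against 53.8 ± 15.9 FPKM. The kinase Fyn, LOC117964098, averaged 7.33 ± 1.34 FPKM in high yield, against 11 ± 3.65 FPKM in low yield (log2 fold change -0.55, SE 0.18, adjusted p = 0.126). Of the 13 tested rows for hypoxia control of VEGF, none was called by edgeR with 16 libraries, and 5 (38.5%) lower and 1 (7.69%) higher had an unadjusted p under 0.05, against 10.7% and 9.15% of all. With pairs summed, 2 (15.4%) were lower at such a p, against 3.35% of all, and 0 higher, against 5.18%. Without low-yield 2 and 5, 2 (15.4%) were lower, against 8.3% of all, and 1 (7.69%) higher, against 12.5%. Both rows of ARNT, the partner of hypoxia-inducible factor, had negative log2 fold changes, -1.99 (SE 0.50, adjusted p = 0.0885) for LOC117962616 and -1.60 (SE 0.47, adjusted p = 0.109) for LOC117395638. Without low-yield 2 and 5 the edgeR values were -1.18 (SE 0.36, adjusted p = 0.0981) and -0.82 (SE 0.38, adjusted p = 0.238). DESeq2 called both ARNT rows with 16 libraries, 2 of the 13 rows against 6.11% of all, and no row of the list with pairs summed. It called 1 row of the list without low-yield 2 and 5, against 9.39% of all. LOC131709427, HIF-1-alpha-like, had a log2 fold change of -0.36 (SE 0.45, adjusted p = 0.679 with edgeR). In the Notch list of 9 tested rows, 1 (11.1%) was lower at an unadjusted p under 0.05, against 10.7% of all, and none was called by edgeR. DESeq2 called 1, jagged-1b LOC117411305, with 16 libraries, against 6.11% of all, and 0 with pairs summed. That row averaged 0.149 FPKM in high yield and 0.375 FPKM in low yield. A second jagged-1b row, LOC117403035, averaged 7.48 and 8.22 FPKM, with a log2 fold change of -0.13 (SE 0.23, adjusted p = 0.776 with edgeR). Without low-yield 2 and 5, 8 of the 9 rows were higher in high yield by value and 1 lower. DESeq2 then called 1 higher and 0 lower, against 9.39% of all. Notch homolog 1 LOC131702938, a short row of about 0.131 kb, averaged 65.0 ± 40.7 FPKM in high yield, against 65.4 ± 34.9 FPKM in low yield.

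**Figure D5:**
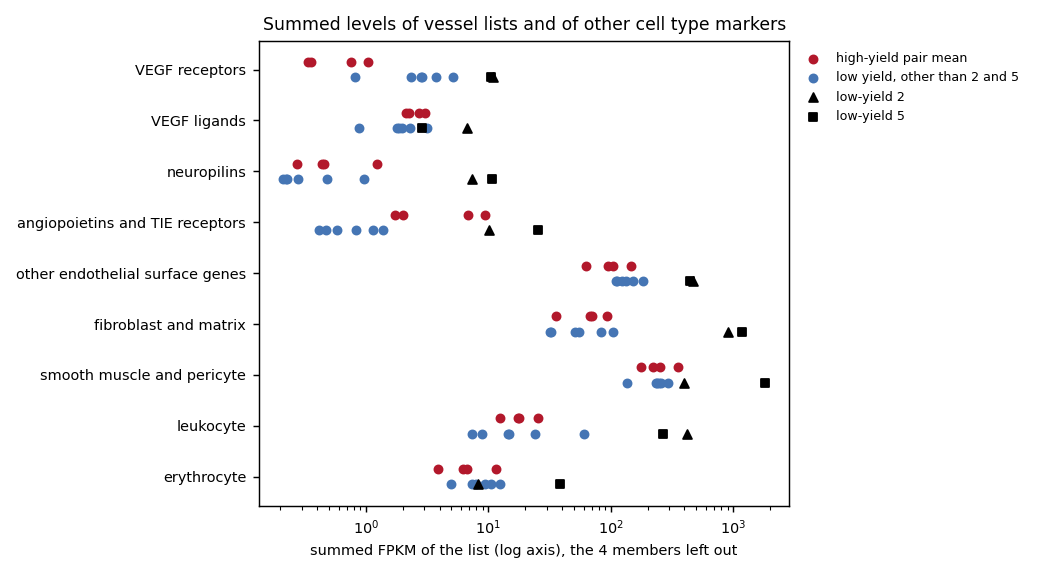
Summed FPKM of lists (down the page) on a log axis, with the 4 described rows left out (red, 4 high-yield pair means; blue, 6 low-yield libraries; black triangle and square, low-yield 2 and 5). Low-yield 2 and 5 lie to the right of the other libraries for the VEGF receptors, the neuropilins, the other endothelial surface genes, fibroblast and matrix, and leukocyte lists.

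Low-yield 2 and 5 were also the highest libraries for leukocyte, smooth muscle and theca markers, beside the cadherin-5, neuropilin and other VEGF receptor rows. The leukocyte list of 24 rows summed to 12.4 to 25.3 FPKM in the high-yield pairs, against 421 and 268 FPKM in low-yield 2 and 5 and 7.32 to 60.8 FPKM in the other 6 low-yield libraries. Of the leukocyte sums, 136 and 132 FPKM in low-yield 2 and 5 came from complement C1q LOC131708114, a row of about 0.132 kb. The smooth muscle and pericyte list of 26 rows summed to 176 to 358 FPKM in the pairs, against 394 and 1832 FPKM in low-yield 2 and 5 and 136 to 292 FPKM in the other 6. The theca list of 12 rows summed to 4.80 to 18.6 FPKM in the pairs, against 170 and 62.6 FPKM in low-yield 2 and 5 and 0.478 to 30.5 FPKM in the other 6. Of the theca sums, 160 and 53.6 FPKM in low-yield 2 and 5 came from lhcgr, a row of about 0.108 kb. Erythrocyte markers summed to 3.86 to 11.7 FPKM in the pairs, against 8.24 and 38.4 FPKM in low-yield 2 and 5 and 4.98 to 12.4 FPKM in the other 6, so that low-yield 2 lay within the range of the rest. The 45 other endothelial surface rows summed to 62.4 to 147 FPKM in the pairs, against 474 and 445 FPKM in low-yield 2 and 5 and 111 to 183 FPKM in the other 6. Oocyte markers summed to 61107 to 95367 FPKM in the pairs, against 74490 and 191955 FPKM in low-yield 2 and 5 and 61104 to 107066 FPKM in the other 6. The part of cell makeup in the levels was not tested.

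The rows whose log2 CPM pattern was most like each member were sought among all tested rows with a description other than uncharacterized; the correlations are descriptions across 12 values that share libraries. Over the 12 values, cadherin-5 was most like elastin LOC117430560 (r = 0.98), the RNA helicase DDX17 LOC117433200 (r = 0.98), nuclear factor 1 X-type-like LOC117409804 (r = 0.98) and elastin LOC117964249 (r = 0.98), and 250 tested rows had r over 0.9 with it. For VEGFR2 no row reached 0.9, and the most like were fatty acid hydroxylase domain-containing protein 2 LOC131699680 (r = 0.87), ribc1 (r = 0.87), vascular cell adhesion protein 1 LOC117402090 (r = 0.87) and an immunoglobulin kappa light chain LOC117968717 (r = 0.86). Among all tested rows the longer VEGFR1 row was at rank 5 in likeness to VEGFR2 over the 12 values and the shorter at rank 7. Over the 10 values without low-yield 2 and 5 they were at ranks 43 and 38. The yield difference for which the rows were chosen enters both.

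The longer VEGFR1 row was most like the VEGFR1 row LOC117405676 (r = 0.94), the shorter VEGFR1 row (r = 0.92), formin-like protein 2 LOC117426904 (r = 0.92) and actin, alpha cardiac muscle 1-like, LOC117411538 (r = 0.91). The shorter VEGFR1 row was most like the longer one (r = 0.92), integrin alpha-10 LOC117395216 (r = 0.91), the same actin row (r = 0.89) and TRIM39 LOC117962819 (r = 0.87). Without low-yield 2 and 5 the order changed. Over these 10 values VEGFR2 was most like a putative decarboxylase of the urate pathway, LOC117406362 (r = 0.94), and eukaryotic translation initiation factor 5 LOC117422609 (r = 0.91). The longer VEGFR1 row was then most like FAM131B LOC117425208 (r = 0.97) and a calcium channel row, LOC117434461 (r = 0.95), the shorter like vascular cell adhesion protein 1 (r = 0.94) and integrin alpha-10 (r = 0.93), and cadherin-5 like AMSH-like protease LOC117415954 (r = 0.93) and MafG LOC117424745 (r = 0.92). Neither elastin row was among the nearest to cadherin-5 there.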

How the data were processed

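Counts and FPKM for each row and library were deposited by the authors, per the file headers. Per the labels' protocols, poly(A) RNA was fragmented and the second strand digested; per the submitters' processing notes, adapters were trimmed with cutadapt 1.9. The aligner, counting program, genome build and annotation are not given in the labels or headers used here, so no positions are printed. Of the deposited counts of at least 100, 99.5% stood within 5% of the row's median ratio to FPKM, so counts may derive from coverage and need not be Poisson.

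Counts were fitted with edgeR 4.0.16 (filterByExpr, TMM, quasi-likelihood F test, two-sided, Benjamini-Hochberg over all tested rows, threshold 0.05), high over low yield, 8 against 8 libraries, all treated as independent. The SE is implied by the F statistic. The same test was run on summed near-identical pairs and without low-yield 2 and 5. CPM are TMM-scaled; correlations use log2 CPM (prior count 2), high-yield pairs averaged, with exact permutation within groups or over 6 values; the planned permutation over all 10 values is not reported, since it would test the yield difference the rows were chosen for. Alternatives were DESeq2 1.42.0, limma 3.58.1 on log2(FPKM + 1), other scalings, filters and pseudocounts, a replicate block, and leaving out libraries; DESeq2 on summed pairs, the group-centred correlation and most alternatives of the fit without low-yield 2 and 5 were added after seeing the data. Scripts were tested on simulated counts.

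The rows described and the gene lists were chosen with earlier results of these data known. Lists were matched by symbol or deposited description and trimmed of wrong matches after the table was seen. Genes were named by rule: all tested VEGF receptor, ligand and neuropilin rows, from each other vessel list the 2 with the highest mean FPKM and the 2 with the smallest p, the 4 (12 values) and 2 (10 values) rows most like each member, and the top row of each marker list; some of these are summarised, and untested copies of named genes were added by their description.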

Additional observations from a re-analysis of the deposited data

Results flagged for a closer look

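Cadherin-5 (LOC117424661) in low-yield 5, at 18.7 CPM, lay far above the other 7 low-yield libraries, whose next highest was low-yield 2 at 4.00 CPM. The gap was 0.794 of the group's range, against a critical value of 0.526 for 8 values in Dixon's test. It was the 1 value found in 8 checks (4 rows, high-yield pair means and low-yield libraries), and chance gives about 1 in 20 such groups for normally spread values. The check used CPM, not log2 CPM, and low-yield 5 was already known to stand apart. Nothing is therefore read from the critical value. Fibroblast and matrix markers summed to 1174 FPKM in that library; their part in the cadherin-5 level was not tested.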

How the results depend on the processing

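All 4 rows kept a negative fold change under the alternatives run, except cadherin-5, whose log2 fold change was 0.45 without low-yield 2 and 5 and 0.47 with pairs summed as well, a reversed direction. For cadherin-5 it was -0.84 with DESeq2, -0.41 with a replicate block, -0.66 with limma on log2(FPKM + 0.1) and -0.32 with log2(FPKM + 1), with or without a filter; on the last scale, which understates low rows, VEGFR2 had -0.78 and the longer VEGFR1 row -0.33. Leaving out single libraries gave -3.62 to -2.87 for VEGFR2, -2.38 to -1.79 for the longer VEGFR1 row, -2.43 to -1.96 for the shorter and -2.89 to -0.90 for cadherin-5. The numbers of the libraries did not pair the groups (r of deviations -0.18 to 0.40, 3 of 8 over 0.1; 3 of 8 high-yield libraries correlated best with their own number); the replicate block called 0 rows, against 16 without it. Counts of called rows were not stable: 0 with pairs summed, 26 with median-of-ratios factors, 3 with library size only, 4 with no filter, 2 with limma on either FPKM scale, 0 unfiltered, 1624 with DESeq2, 86 with DESeq2 on summed pairs, 0 without high-yield 1 and 5 or 2 and 6, 393 without 3 and 7, 413 without 4 and 8, and 0 to 536 without single libraries (the highest, 536, when low-yield 8 was left out, then 32 for 5 and 29 for 7). Without low-yield 2 and 5, 3 rows were called, 0 with pairs summed too, 0 with no filter, 2461 with DESeq2 and 0 to 557 without a further library (557 without low-yield 8). Of the vessel lists, 14 rows were called with DESeq2, 0 with DESeq2 on summed pairs, 3 without high-yield 3 and 7, 2 without high-yield 4 and 8, and 0 to 3 without single libraries. The receptor correlations were 0.75 and 0.83 for VEGFR2 with the longer and shorter VEGFR1 row in 6 low-yield libraries, and 0.76, 0.76 and 0.85 centred on yield groups. The cause of these changes was not tested. With 3 to 41 counts of VEGFR2, and 0 to 21 of each VEGFR1 row, per high-yield library, differences among high-yield libraries are at the limit of the depth.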

Other observations

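TIE1, an endothelial receptor related to the angiopoietin receptor, set the high-yield libraries apart from one another. The TIE1 row LOC117416718 was at 3.97 and 3.37 FPKM in high-yield pairs 1 and 5 and 2 and 6, and at 0.346 and 0.752 FPKM in pairs 3 and 7 and 4 and 8. It was at 5.47 FPKM in low-yield 5, 1.83 FPKM in low-yield 2 and at most 0.473 FPKM in the other 6 low-yield libraries. A second TIE1 row, LOC117400821, had the same order, with 1.65, 1.37, 0.105 and 0.203 FPKM in the 4 pairs and 2.29 FPKM in low-yield 5. The log2 fold change of LOC117416718 was 0.79 (SE 0.95, adjusted p = 0.668 with edgeR) with 16 libraries. It was 3.29 (SE 0.83, adjusted p = 0.0783 with edgeR) without low-yield 2 and 5, not passing the threshold in either edgeR fit. Without low-yield 2 and 5, DESeq2 called 2 of the 7 tested rows of the angiopoietin and TIE list, both higher, against 9.39% of all. With 16 libraries it called none of the list, with or without pairs summed.

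Transcription factor Sox-7 LOC117403398, which is active in endothelial and other cells, followed the same high-yield split, with 22.6 and 10.1 FPKM in pairs 1 and 5 and 2 and 6 and 3.51 and 3.36 FPKM in the other pairs. In low yield it ranged up to 5.90 FPKM, in low-yield 2. It had a log2 fold change of 1.76 (SE 0.44, adjusted p = 0.0885 with edgeR), and 2.16 (SE 0.48, adjusted p = 0.0702 with edgeR) without low-yield 2 and 5. DESeq2 called Sox-7 with 16 libraries (adjusted p = 0.00585), where it called 6.11% of all, and no row of the endothelial transcription factor list with pairs summed. Without low-yield 2 and 5 DESeq2 called 3 higher and 1 lower of that list's 21 tested rows, against 9.39% of all. VEGFR2 (LOC117420387) ran the other way within high yield, at 0.120 and 0.249 CPM in the first 2 of these pairs and 0.688 and 0.561 CPM in the last 2. With 4 pairs these within-group differences were not tested.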
